A study of Homo sapiens with 8 samples.

Results

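The ketogenic diet was compared with the standard diet in leukaemia cells from mice that also received gilteritinib, in 4 of the 8 libraries of the series. The mice carried MOLM14, a human acute myeloid leukaemia line labelled with an FLT3 internal tandem duplication and a rearranged MLL gene (FLT3-ITD, MLLr). The series design text names the host model CLDX, and the sources used here do not give mouse strain, age or the number of animals behind a library. All mice were engrafted, the diet lasted 3 weeks and the drug or its vehicle 1 week. The 4 libraries chosen are those with gilteritinib, namely marrow with standard diet, marrow with ketogenic diet, and the same pair for tissue labelled liver. Each pair shares a tissue code, which the labels call a batch, so tissue and batch cannot be told apart. The 4 vehicle libraries, built the same way, served to ask whether the diet effect differed with the drug. A sample is 1 library, and p-values measure only the spread between these libraries, which may be technical.

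Gilteritinib inhibits FLT3 and, among others, AXL, and so blocks growth signalling through STAT5, MAPK and AKT in cells with an FLT3 duplication. A ketogenic diet is rich in fat and poor in carbohydrate, which lowers insulin and supplies cells with fatty acids and ketone bodies. Fatty acids activate the PPAR nuclear receptors, whose known targets include CPT1A, SLC25A20 and PDK4. Primary granule proteins such as myeloperoxidase and neutrophil elastase are made by myeloid precursors at the promyelocyte stage, and their genes are known targets of the factors PU.1 and C/EBP.

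Levels are given as CPM, counts per 1000000 counts of the library with library sizes scaled by TMM factors. Marrow cells had been sorted for human CD45, whereas the other label describes a whole liver extract of mouse and human cells. In the 4 gilteritinib libraries 10 human hepatocyte markers together held 0.226 to 0.587 CPM, and 6 of them, ALB and TTR included, were at 0. The hepatocytes of a mouse liver carry mouse transcripts, so these values do not measure how much mouse liver RNA a library held. Markers of the leukaemia summed to 5570 and 6500 CPM in marrow with standard and ketogenic diet, and to 7940 and 7340 CPM in the labelled liver. Macrophage markers summed to 30.6 and 34.9 CPM in marrow and 22.5 and 16.9 CPM in the labelled liver, in the same order. The 4 libraries held 15557885 to 27657147 counts. In bulk RNA, fewer cells of a type and less RNA per cell cannot be told apart.

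The promoters of 2 granule protein genes and 2 class II antigen presentation genes are shown first, because these groups carried some of the larger changes described below. The RefSeq windows (GRCh38.p14) span 250 bases before to 50 bases after the start. Capitals mark the PU.1 core GAGGAA and the C/EBP pattern TTNNGNAA on either strand. The AZU1 window (chr19:827587-827886, plus strand) and the PRTN3 window (chr19:840749-841048, plus strand) are as follows.
AZU1: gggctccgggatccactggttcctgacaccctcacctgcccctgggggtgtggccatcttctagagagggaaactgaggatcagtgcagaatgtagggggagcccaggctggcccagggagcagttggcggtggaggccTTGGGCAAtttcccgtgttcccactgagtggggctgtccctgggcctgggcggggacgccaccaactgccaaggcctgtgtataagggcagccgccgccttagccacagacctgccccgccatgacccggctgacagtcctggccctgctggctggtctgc
PRTN3: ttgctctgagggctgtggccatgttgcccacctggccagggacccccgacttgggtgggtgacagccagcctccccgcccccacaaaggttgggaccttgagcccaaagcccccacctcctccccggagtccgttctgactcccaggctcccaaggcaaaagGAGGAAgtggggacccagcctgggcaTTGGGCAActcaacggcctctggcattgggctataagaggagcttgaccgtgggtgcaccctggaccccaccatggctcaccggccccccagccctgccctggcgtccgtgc
Both hold the same C/EBP match, TTGGGCAA, and PRTN3 also holds the PU.1 core, without overlap between the motifs. Of 35116 windows in the table, 36.8% hold the C/EBP pattern and 27.9% the PU.1 core. Beside them stand the windows of 2 class II genes, HLA-DRB1 (chr6:32589799-32590098, minus strand) and HLA-DQB1 (chr6:32666608-32666907, minus strand), with the Y box CTGATTGG in capitals.
HLA-DRB1: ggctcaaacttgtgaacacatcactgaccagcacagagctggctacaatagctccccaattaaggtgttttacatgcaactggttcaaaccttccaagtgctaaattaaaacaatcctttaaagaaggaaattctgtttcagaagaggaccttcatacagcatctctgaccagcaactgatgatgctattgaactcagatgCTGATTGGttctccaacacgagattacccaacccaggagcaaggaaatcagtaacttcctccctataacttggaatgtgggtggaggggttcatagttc
HLA-DQB1: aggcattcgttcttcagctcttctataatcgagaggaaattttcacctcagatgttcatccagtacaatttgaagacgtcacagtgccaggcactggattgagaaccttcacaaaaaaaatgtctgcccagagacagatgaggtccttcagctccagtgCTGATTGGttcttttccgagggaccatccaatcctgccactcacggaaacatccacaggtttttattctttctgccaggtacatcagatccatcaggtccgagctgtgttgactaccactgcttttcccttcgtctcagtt
The Y box, the element bound by NF-Y in class II promoters, was found in both and in 3.97% of all windows. The exact letters CTGATTGG were not found in the window of CD74, and other forms of the element were not searched for. The nuclear receptor half-site AGGTCA (13.8% of all windows) was not found in the windows of CPT1A, SLC25A20, ACAA2 or PDK4. A match describes letters and shows no binding.

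With the diet added to gilteritinib, CPT1A, SLC25A20 and 4 other fatty acid oxidation genes were higher, as was PDK4. So were 5 members of the primary granule list and 10 cell cycle genes. The desaturase SCD, the glucose transporter SLC2A1, 7 MHC class II genes, FLT3 and 7 immediate early genes were lower. The test was edgeR's quasi-likelihood test on counts, with the tissue code as a block and Benjamini-Hochberg adjustment. It called 1745 of 14229 tested genes at an adjusted p under 0.05, or 12.3%. Of these 933 were higher (6.56%) and 812 lower (5.71%), and 88 differed by 2-fold or more. The split depended on scaling, with 1094 higher and 557 lower under upper quartile factors and 621 higher and 1497 lower under library totals. The ratio had the same direction in both labels for 1740 of the 1745 genes, which the fit itself favours, since it calls genes whose 2 ratios agree. In 6892 genes at or above a mean log2 CPM of 4, the ratios of the 2 labels had a Pearson r of 0.616 under gilteritinib and -0.0705 under vehicle, a description across genes, which share libraries and the length trend given next and are not independent replicates. For 41.7% of tested genes both ketogenic libraries lay on one side of both standard libraries.

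**Figure D1:**
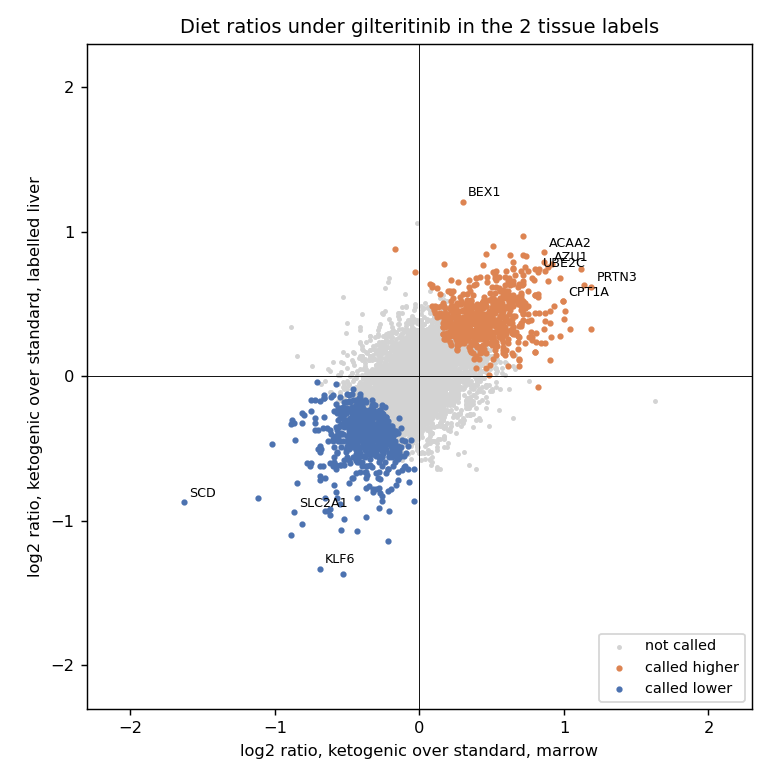
Log2 ratio of the ketogenic over the standard library in marrow (x axis) and in the labelled liver (y axis) under gilteritinib, for genes with a mean log2 CPM of 4 or more; 1 point is a gene. Called genes (orange higher, blue lower) lie mostly in the 2 quadrants where both labels move the same way, as the fit favours.

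The diet ratio under gilteritinib also followed transcript length. The median log2 ratio of 588 genes with transcripts under 1000 bases was 0.28 in marrow and 0.31 in the labelled liver. For transcripts over 8000 bases it was -0.16 and -0.17. Under vehicle, Spearman's rho of the ratio with length was -0.0104 in marrow and -0.039 in the labelled liver, against -0.42 and -0.483 under gilteritinib. Of the shortest class 305 genes were called higher and 4 lower. The same fit was therefore repeated, as a setting added after seeing the data, with offsets that remove each library's trend on transcript length and GC content. It called 479 genes higher (3.38%) and 484 lower (3.42%) of 14153. Of the genes called in the first fit, 750 were called again in the same direction. The part of RNA quality or library preparation in this trend was not tested. Counts under this second fit are given as counts with offsets. When 1 gilteritinib library is left out of a fit of all 8, only the pair of the other tissue label carries the diet effect. Such counts are given as resting on the labelled liver pair alone or the marrow pair alone. The diet effect is then 1 library against 1, and the residual spread comes from the vehicle arm. These counts are a description and test neither a single label nor a difference between labels. Such fits also called fewer genes over all, as given in the last section. A lower list count is therefore not by itself particular to a list. Where the 2 libraries that can be left out give different counts, both are given.

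**Figure D2:**
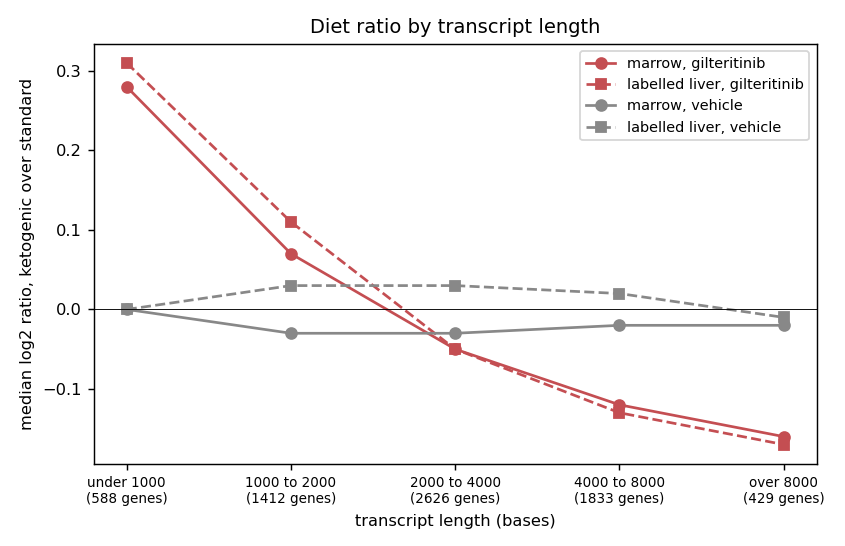
Median log2 ratio of ketogenic over standard diet (y axis) by transcript length class (x axis, bases) in the 4 tissue and drug pairs. Under gilteritinib (red) the medians go from 0.28 and 0.31 in the shortest class to -0.16 and -0.17 in the longest, and the vehicle pairs (grey) lie close to 0.

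Of 22 tested fatty acid oxidation genes 6 rose, 1 fell and 15 were not called, and with offsets 6 rose and 0 fell. The counts were 6 higher on the labelled liver pair alone and 5 higher on the marrow pair alone. The list median was a log2 fold change of 0.11, against 0.00 over all tested genes. CPT1A, which links fatty acids to carnitine on the outer mitochondrial membrane, went from 33.5 to 66.4 CPM in marrow and from 40.5 to 58.1 CPM in the labelled liver (standard to ketogenic, as in all pairs that follow). Both ketogenic libraries lay above both standard ones, with a log2 fold change of 0.74 ± 0.11 (SE, edgeR adjusted p = 5.17e-09). The diet effect on CPT1A, averaged over both drug arms, differed between labels (-0.67, labelled liver minus marrow, edgeR adjusted p = 0.0334). SLC25A20, which carries acylcarnitine into the matrix, went from 31.6 to 55.2 CPM in marrow and from 24.4 to 40.8 CPM in the labelled liver (0.77 ± 0.12, edgeR adjusted p = 7.54e-09). Its levels did not overlap between diets. ACAA2, the mitochondrial thiolase, rose from 38.3 to 69.6 and from 44.3 to 80.5 CPM (0.86 ± 0.11, edgeR adjusted p = 1.04e-12). ACADVL, the dehydrogenase of very long chains, rose from 203 to 315 and from 213 to 309 CPM, and ECH1, an enoyl-CoA isomerase, from 152 to 232 and from 131 to 206 CPM. The sixth, ETFB, which passes electrons from the dehydrogenases, rose from 28.6 to 41.0 and from 28.3 to 46.6 CPM. ACADM, the medium chain dehydrogenase, fell by 0.32 on the log2 scale but was not called with offsets (edgeR adjusted p = 0.0904). CPT2, the inner membrane partner of CPT1A, was at 25.4 and 27.4 CPM in marrow and 30.1 and 29.2 CPM in the labelled liver and was not called. CPT1B, the muscle isoform of CPT1A, had 0 to 1 counts and was not tested.

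PDK4, the kinase that shuts pyruvate out of the citrate cycle, was all but absent without the diet. It had 0 counts in the marrow library on standard diet and 23 on ketogenic diet, and 1 against 29 in the labelled liver. In marrow this was at least 6.07-fold higher, taking the floor of 3 counts for that library. In the labelled liver the ratio was 29 with an exact conditional interval of 4.81 to 1190 that covers counting error only. Under vehicle the counts were 1 and 36 in marrow and 2 and 17 in the labelled liver, so PDK4 rose in all 4 pairs. It passed the filter of 10 counts in 2 libraries only through the ketogenic libraries, so no p-value is given for it. PLIN2, a coat protein of lipid droplets, rose from 22.9 to 32.0 CPM in marrow and from 23.4 to 33.8 CPM in the labelled liver (0.51 ± 0.12, edgeR adjusted p = 0.00122), but was called on neither pair alone. Among 11 tested PPAR targets outside oxidation 2 rose, namely PDK4 and PLIN2, and 1 fell, and the counts were the same with offsets. On the labelled liver pair alone 1 rose and 1 fell, and on the marrow pair alone 1 rose.

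The same fat genes moved in the vehicle arm, whose libraries are separate. There 36 of 13784 genes were called (0.261%), and 27 of them were also called under gilteritinib in the same direction, 75% of the vehicle calls and 1.55% of the gilteritinib calls. None went the opposite way, and 26 were called with offsets too. They include CPT1A, SLC25A20, ACAA2, ACADVL, ECH1, PLIN2, SCD and BDH1, and also PDK4, which passed the filter in each arm only through its ketogenic libraries. No member of the oxidation list was called for a drug by diet difference, and the difference was -0.29 for CPT1A (edgeR adjusted p = 0.781) and -0.25 for SLC25A20 (edgeR adjusted p = 0.569). This does not show that the effects are equal. It says that no difference was detected with 2 libraries a group.

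SCD, the desaturase that makes monounsaturated fatty acids, fell in both labels. It went from 24.4 to 7.80 CPM in marrow and from 25.5 to 13.9 CPM in the labelled liver (-1.19 ± 0.14, edgeR adjusted p = 1.57e-13). Under vehicle it went from 83.5 to 22.9 and from 56.4 to 24.2 CPM. The level on standard diet was lower with gilteritinib in both labels, a drug difference not tested here. Of 16 tested fatty acid synthesis genes 6 fell and 0 rose, and 4 fell with offsets. With only the marrow pair 1 fell, and with only the labelled liver pair 2. FASN, the fatty acid synthase, went from 94.6 to 78.5 and from 101 to 78.4 CPM (-0.32 ± 0.10, edgeR adjusted p = 0.0156), and ACSS2 and ELOVL5 fell as well, by 0.53 and 0.47 on the log2 scale. SREBF1, their regulator, had a log2 fold change of -0.02 (edgeR adjusted p = 0.945). Of 23 cholesterol genes 6 fell and 1 rose, and with offsets 3 fell and 1 rose. The counts were 1 lower on the labelled liver pair alone and 2 or 3 lower on the marrow pair alone. SQLE, the squalene epoxidase, went from 9.33 to 4.29 and from 8.90 to 5.77 CPM (-0.83 ± 0.19, edgeR adjusted p = 0.000715) and was called in both fits. Of 12 ketone body and monocarboxylate transport genes 3 fell and 0 rose, and 2 fell with offsets. With only the marrow pair 0 fell, and with only the labelled liver pair 1. BDH1, which interconverts the ketone bodies, went from 28.0 to 19.7 and from 36.1 to 25.8 CPM (-0.49 ± 0.12, edgeR adjusted p = 0.00199). Neither FASN nor BDH1 was called on either pair alone. SLC16A1, a carrier of lactate and ketone bodies, was at 66.5 and 62.7 CPM in marrow and 73.5 and 84.9 CPM in the labelled liver and was not called.

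SLC2A1, the GLUT1 transporter, went from 44.5 to 24.3 CPM in marrow and from 46.8 to 24.3 CPM in the labelled liver (-0.91 ± 0.12, edgeR adjusted p = 7.63e-12). HK2, an inducible hexokinase, went from 51.4 to 27.6 and from 42.3 to 33.5 CPM (-0.60 ± 0.11, edgeR adjusted p = 1.36e-05), and SLC2A3, the GLUT3 transporter, fell by 0.49 on the log2 scale. Of 22 glycolysis genes 6 fell and 1, LDHB, rose, and the counts were the same with offsets. On either pair alone 2 fell. The other 15 were not called, HK3, another hexokinase, among them at 0.21, and the list median was -0.21. HK2 was not called on the labelled liver pair alone (-0.33). ARRDC4, an arrestin induced by glucose, went from 65.3 to 30.0 and from 71.3 to 39.9 CPM (-0.97 ± 0.11, edgeR adjusted p = 1.72e-15). Its close relative TXNIP was at 410 and 377 CPM in marrow and 313 and 340 CPM in the labelled liver, with a log2 fold change of 0.00. The fall of ARRDC4 was larger than under vehicle by 0.61 (edgeR adjusted p = 0.043), a call lost with offsets (edgeR adjusted p = 0.132). Of 13 hypoxia genes 4 fell and 0 rose, with the same counts under offsets, and P4HA1, NDRG1 and VEGFA were among them. The counts were 2 lower on the labelled liver pair alone and 1 lower on the marrow pair alone.

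**Figure D3:**
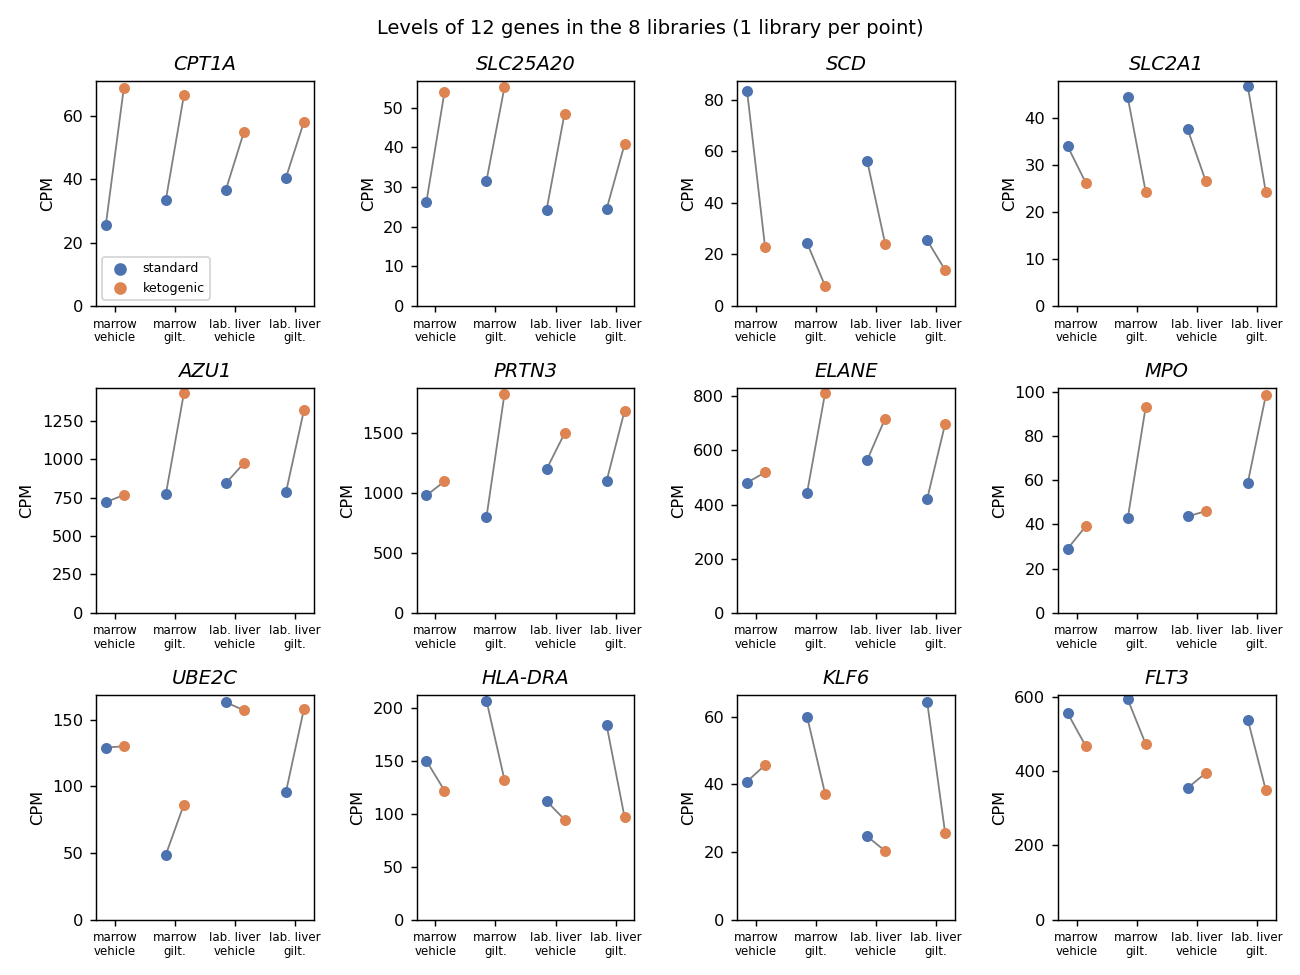
Level in CPM (y axis, from 0) of 12 genes in the 8 libraries, grouped by tissue label and drug (x axis); each point is 1 library and grey lines join the diets. CPT1A and SLC25A20 rise with the diet in all 4 pairs, whereas AZU1 goes from 773 to 1430 CPM with gilteritinib in marrow and from 721 to 767 CPM without it.

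Of 9 tested members of the primary granule list 5 rose and 0 fell, and the list median was 0.73 on the log2 scale. It was 0.62 on the labelled liver pair alone and 0.88 on the marrow pair alone. The members that rose most differed between the labels, as the levels of MS4A3 and CTSG below show. PRTN3, proteinase 3, went from 801 to 1830 CPM in marrow and from 1100 to 1690 CPM in the labelled liver (0.90 ± 0.08, edgeR adjusted p = 3.78e-24). AZU1, azurocidin, went from 773 to 1430 and from 784 to 1320 CPM (0.82 ± 0.08, edgeR adjusted p = 5.16e-20), and ELANE, neutrophil elastase, from 444 to 812 and from 421 to 699 CPM (0.80 ± 0.08, edgeR adjusted p = 6.91e-18). These 3 genes are neighbours on chromosome 19, with AZU1 starting at 825097, PRTN3 at 840960 and ELANE ending at 856247 (GENCODE 29, GRCh38, plus strand). MPO, myeloperoxidase, lies on chromosome 17 and went from 42.7 to 93.1 and from 58.8 to 98.3 CPM (0.92 ± 0.10, edgeR adjusted p = 1.72e-15). MS4A3, a membrane protein of granulocyte precursors, went from 40.3 to 92.0 and from 76.2 to 96.0 CPM. In each of these 5 genes both labels rose, with PRTN3 at a ratio of 2.28 in marrow and 1.53 in the labelled liver. CTSG, cathepsin G, was at 948 and 933 CPM in marrow and 462 and 964 CPM in the labelled liver and was not called. BPI, RNASE2 and RNASE3, also granule proteins, were not called either, with log2 fold changes between -0.10 and 0.17.

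AZU1, PRTN3 and ELANE have transcripts of 908, 1026 and 1028 bases, in or near the length class that was raised as a whole, whereas MPO has 3215. With offsets the 5 genes were called again, at 0.49 for AZU1, 0.62 for PRTN3, 0.51 for ELANE, 0.94 for MPO and 0.72 for MS4A3, and 1 other member of the list was called lower. Under vehicle only MS4A3 of the list was called, and MPO went from 29 to 39.1 CPM in marrow and from 43.6 to 46.0 CPM in the labelled liver. Of the 5, the drug by diet difference was called for AZU1 (0.67, edgeR adjusted p = 0.00147), ELANE (0.57, edgeR adjusted p = 0.0114) and MPO (0.66, edgeR adjusted p = 0.0396), and not for PRTN3 (0.66, edgeR adjusted p = 0.135) or MS4A3 (0.10, edgeR adjusted p = 0.939). With offsets it was called for MPO (edgeR adjusted p = 0.0342) and not for AZU1 (edgeR adjusted p = 0.143) or ELANE (edgeR adjusted p = 0.379).

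Cell cycle genes rose in part. Of 33 tested 10 rose and 0 fell, and with offsets 13 rose and 0 fell. UBE2C, an E2 enzyme of the anaphase promoting complex, went from 48.7 to 86.3 CPM in marrow and from 95.7 to 158 CPM in the labelled liver (0.77 ± 0.10, edgeR adjusted p = 7.63e-12). AURKB, a mitotic kinase, rose from 16.4 to 30.6 and from 37.0 to 58.6 CPM, and MKI67, the Ki-67 antigen, from 30.1 to 59.1 and from 101 to 122 CPM. The diets overlapped for MKI67 because the labelled liver was higher on either diet, and MKI67 was not called on the labelled liver pair alone. Its diet effect, averaged over both drug arms, differed between labels (-0.75, labelled liver minus marrow, edgeR adjusted p = 0.000934). Replication genes such as MCM2 to MCM7 and PCNA were not called, with log2 fold changes from -0.09 to 0.20, and TOP2A was at 87.3 and 77.8 CPM in marrow and 191 and 162 CPM in the labelled liver. Under vehicle 0 of the list were called. UBE2C was at 129 and 130 CPM in marrow and 163 and 157 CPM in the labelled liver without the drug, so its level on gilteritinib with standard diet was the lowest of the 4 conditions in each label. Its drug by diet difference was 0.78 (edgeR adjusted p = 0.00293, and 0.0217 with offsets). Leaving out a marrow library of the gilteritinib arm left 2 of the list called, and leaving out a labelled liver one left 6.

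Of 11 tested MHC class II genes 7 fell and 0 rose, 8 fell with offsets, and the list median was -0.54. HLA-DRA, the alpha chain of HLA-DR, went from 207 to 132 CPM in marrow and from 184 to 96.8 CPM in the labelled liver (-0.79 ± 0.09, edgeR adjusted p = 3.57e-14). HLA-DRB1 went from 93.9 to 72.9 and from 84.1 to 52.3 CPM, and HLA-DQB1 from 54.4 to 44.3 and from 47.6 to 27.7 CPM. CIITA, the coactivator of the class II promoters, went from 6.26 to 5.79 and from 8.22 to 3.66 CPM (-0.69 ± 0.21, edgeR adjusted p = 0.0111). The ratio of HLA-DRA was 0.635 in marrow and 0.526 in the labelled liver. The list median was -0.83 on the labelled liver pair alone and -0.32 on the marrow pair alone, so the list as a whole fell less on the marrow pair. A difference between labels, averaged over both drug arms, was not called for HLA-DRA, HLA-DRB1 or HLA-DQB1 (edgeR adjusted p = 0.675, 0.588 and 0.441). This does not show equal effects in the 2 labels. Reads of the HLA genes may be shared between near-identical copies. HLA-DRA alone of the list was called for a drug by diet difference (-0.52, edgeR adjusted p = 0.043, and 0.0209 with offsets).

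Of 19 immediate early genes 7 fell and 0 rose, and 6 fell with offsets. KLF6, a zinc finger factor induced early by growth signals, went from 60.0 to 37.2 CPM in marrow and from 64.3 to 25.5 CPM in the labelled liver (-1.02 ± 0.11, edgeR adjusted p = 3.12e-16). BTG2, which slows the cell cycle, fell by 0.73 and ATF3, a stress factor, by 0.66 on the log2 scale. FOS, JUN, EGR1 and IER2 were not called. Leaving out either marrow gilteritinib library gave 6 lower and 1 higher, and leaving out either labelled liver one gave 2 lower. This list also holds genes induced by cell handling, and the part of handling was not tested.

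Targets of STAT5, the factor downstream of FLT3, fell in 4 of 16 and rose in 0, and 5 fell with offsets. OSM, the cytokine oncostatin M, went from 66.3 to 44.2 and from 85.7 to 49.2 CPM (-0.70 ± 0.11, edgeR adjusted p = 1.09e-08). PIM1, a kinase, went from 228 to 173 and from 323 to 210 CPM (-0.51 ± 0.09, edgeR adjusted p = 1.73e-06), and SOCS3, a feedback inhibitor, from 66.3 to 48.7 and from 62.8 to 39.3 CPM. OSM was called for a drug by diet difference (-0.69, edgeR adjusted p = 0.0334, and 0.028 with offsets). With only the marrow pair 1 of the list fell and PIM1 was not called, and with only the labelled liver pair 4 fell. CISH, BCL2L1 and MYC were not called. FLT3 went from 594 to 473 CPM in marrow and from 539 to 349 CPM in the labelled liver (-0.48 ± 0.08, edgeR adjusted p = 2.20e-06, and 0.000175 with offsets). AXL, a receptor kinase that gilteritinib also inhibits, went from 23.4 to 20.3 and from 18.3 to 9.59 CPM (-0.56 ± 0.14, edgeR adjusted p = 0.00192). On the marrow pair alone neither was called. FLT3 was then at -0.33 or -0.32, by the library left out, and AXL at -0.20. Neither gene was called for a drug by diet difference (edgeR adjusted p = 0.100 and 0.0637). Of 18 differentiation genes 4 fell, ITGAM, IRF8 and KLF4 among them, and 1 rose, namely FCGR1A, with the same counts under offsets. The list median was -0.45 on the labelled liver pair alone and 0.11 on the marrow pair alone, so the list as a whole did not fall on the marrow pair. The named members kept their direction, since ITGAM, IRF8 and KLF4 fell and FCGR1A rose in both labels. These falls were smaller in marrow, with log2 ratios of -0.26, -0.19 and -0.34 against -0.86, -0.50 and -0.52 in the labelled liver. A difference between labels, averaged over both drug arms, was called for none of these named members (edgeR adjusted p = 0.0801, 0.441, 0.521 and 0.979).

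For ribosomal and respiratory chain transcripts the counts changed with the offsets. Of 32 cytosolic ribosomal proteins 16 rose and 0 fell, and with offsets 10 rose and 3 fell. The counts were 9 higher on the labelled liver pair alone and 4 higher on the marrow pair alone. RPL26 went from 102 to 160 and from 96.0 to 152 CPM (0.65 ± 0.09, edgeR adjusted p = 2.18e-09), and it has processed copies with which reads may be shared. Of 26 nuclear oxidative phosphorylation genes 9 rose and 0 fell, and with offsets 3 rose and 2 fell. On either pair alone 0 were called. NDUFB8 and ATP5MC1, with transcripts of 671 and 614 bases, were not called with offsets (edgeR adjusted p = 0.276 and 0.959). Of 13 genes of the mitochondrial genome 7 rose and 0 fell, and with offsets 1 rose and 1 fell. On the labelled liver pair alone 2 rose, with a list median of 0.06, and on the marrow pair alone 10 rose, with a list median of 0.47. MT-CO3, a cytochrome oxidase subunit, rose from 14300 to 20000 and from 16200 to 21100 CPM, and stayed called with offsets (edgeR adjusted p = 0.0272).

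**Figure D4:**
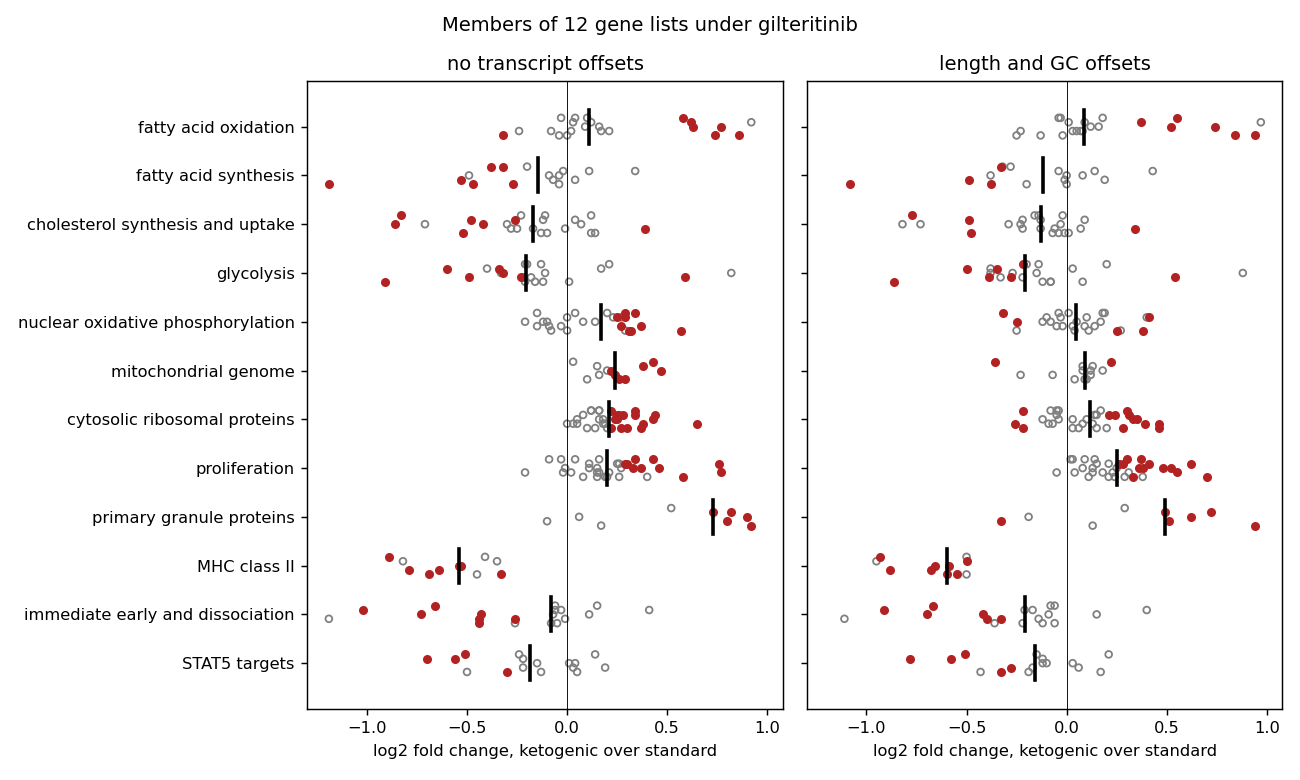
Log2 fold change of ketogenic over standard diet under gilteritinib (x axis) for the members of 12 gene lists (y axis), without offsets on the left and with length and GC offsets on the right. Red points are called genes, open points are not, and black bars mark the medians, 0.73 and 0.49 for the granule proteins and 0.24 and 0.09 for the mitochondrial genome.

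Smaller counts were found elsewhere. ATF4, the main factor of the integrated stress response, went from 351 to 479 and from 427 to 625 CPM (0.50 ± 0.09, edgeR adjusted p = 7.93e-07), while 3 of 19 members of that list fell, PPP1R15A and ATF3 among them, with the same counts under offsets. With only the marrow pair 1 fell, and with only the labelled liver pair 2. PHGDH, the first enzyme of serine synthesis, went from 61.4 to 106 CPM in marrow and from 156 to 186 CPM in the labelled liver (0.50 ± 0.10, edgeR adjusted p = 1.54e-05), and TYMS was the other of 2 that rose in 14, in both fits. The counts were 0 higher on the labelled liver pair alone and 1 higher on the marrow pair alone. In the interferon list 2 of 28 fell and in the BCL2 family 1 of 13, shares near the 5.71% of all tested genes called lower. With offsets 3 and 1 fell, where 3.42% of all tested genes were called lower. Of 17 MAPK output genes 2 fell, PHLDA1 and DUSP6, and DUSP6 was not called with offsets (edgeR adjusted p = 0.125). With only the marrow pair 0 fell, and with only the labelled liver pair 3. Of 16 leukaemia transcription factors 3 fell, 2 with offsets, 0 on the labelled liver pair alone and 1 on the marrow pair alone. Among them was MEF2C, from 206 to 140 and from 193 to 146 CPM, which was not called on the labelled liver pair alone. In the unfolded protein response list 1 of 17 rose, and none with offsets. In the citrate cycle 1 of 21 rose and 2 fell, with the same counts under offsets. In the NRF2 and glutathione list 1 of 17 rose and 3 fell, and with offsets 0 and 2. In the NF-kB list 1 of 14 rose and 2 fell, and with offsets 1 and 1. Among 6 LXR targets 1 rose and 1 fell, and with offsets 0 and 1. On either pair alone at most 1 gene of each of these 4 lists was called in each direction.

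Outside the lists, the largest changes among called genes of mean log2 CPM 2 or more included JCHAIN, the joining chain of antibodies, from 1.37 to 4.44 and from 9.16 to 20.3 CPM. GAL, the neuropeptide galanin, went from 4.96 to 13.6 and from 8.03 to 13.5 CPM. PDE3A, a phosphodiesterase, went from 24.5 to 10.7 and from 21.3 to 9.36 CPM (-1.19 ± 0.15, edgeR adjusted p = 7.20e-13). RGS1, a regulator of G proteins, went from 31.6 to 17.0 and from 34.5 to 16.1 CPM, and GPR183, an oxysterol receptor, from 55.2 to 38.1 and from 81.6 to 31.6 CPM. NRP1, TOX, NFAT5 and ATG9A fell by 1.01 to 1.09 on the log2 scale. BLNK, an adaptor of B cell receptor signalling, was called at -0.95 but was at 6.66 and 6.51 CPM in marrow against 12.8 and 4.08 CPM in the labelled liver. FAM83D, FNDC10, MFAP4, DERL3, TEDC1, RHEX and TUT1 rose by 0.90 to 1.11 on the same scale.

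The test of whether the diet effect differed between gilteritinib and vehicle called 108 of 14749 genes, or 0.732%. Of these 79 had a more positive diet effect under gilteritinib and 29 a more negative one. Of the 108, 107 were also called for diet under gilteritinib and 0 under vehicle. The 108 included AZU1, ELANE, MPO, UBE2C and KLF6. Of these, AZU1, ELANE and KLF6 lost the call with offsets (edgeR adjusted p = 0.143, 0.379 and 0.127). Also among the 108 was BHLHE40, a clock and stress repressor, which went from 107 to 73.7 and from 130 to 62.3 CPM with the drug. Without it BHLHE40 was at 85.5 and 86.2 CPM in marrow and 59.2 and 59.9 CPM in the labelled liver (difference -0.82, edgeR adjusted p = 0.00709). EIF3L, an initiation factor subunit, and ALDH1A3, a retinaldehyde dehydrogenase, had differences of -0.71 and -0.57. With length and GC offsets 32 genes were called, 26 of them shared with the 108. Without the labelled liver vehicle library on standard diet 10 genes were called, and without the one on ketogenic diet 7.

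**Figure D5:**
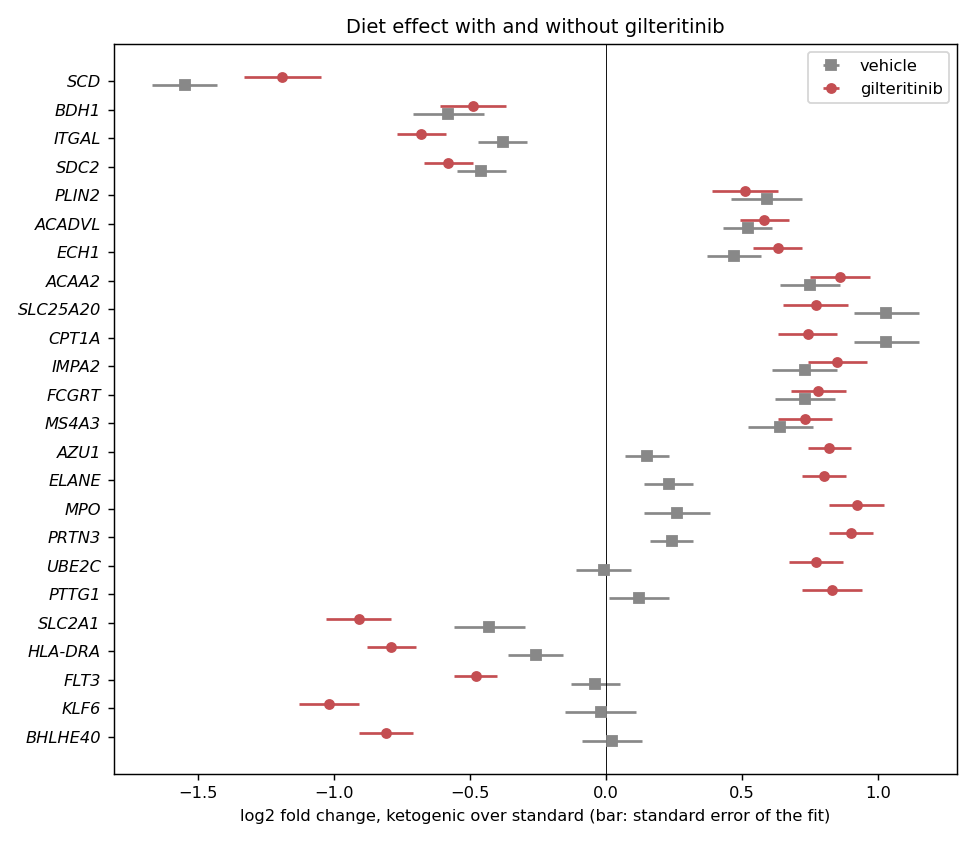
Log2 fold change of ketogenic over standard diet (x axis, bars are standard errors of the fit) for selected genes (y axis) under vehicle (grey squares) and gilteritinib (red circles). CPT1A, SLC25A20 and SCD lie on the same side of 0 in both arms, whereas AZU1, UBE2C and BHLHE40 lie near 0 under vehicle, at 0.15, -0.01 and 0.02.

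A difference in the diet effect between tissue labels, averaged over both drug arms, was called for 48 of 14749 genes, or 0.325%. Mitochondrially encoded transcripts led the more negative side. MT-ND4, a complex I subunit, went from 11100 to 14400 CPM in marrow and from 13900 to 13100 CPM in the labelled liver under gilteritinib, and from 9300 to 12300 and from 14900 to 12500 CPM under vehicle. Its difference between labels was -0.58 (edgeR adjusted p = 9.11e-05). On the other side BEX1, a signalling adaptor, went from 86.5 to 107 CPM in marrow and from 41.1 to 95.3 CPM in the labelled liver under gilteritinib (0.72, edgeR adjusted p = 0.0106). GBP5, an interferon induced GTPase, went from 34.5 to 18.6 CPM in marrow and from 23.3 to 29.5 CPM in the labelled liver.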

How the data were processed

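Messenger RNA libraries were made from total RNA and sequenced as paired ends, per the labels' protocols. Per the submitters' processing notes the aligner was STAR 2.7.3a and the build GRCh38. The deposited table holds raw counts of 60676 genes; the counting program, its annotation, strand and the separation of mouse reads were unstated in the sources, which leaves antisense and overlapping genes uncertain. A member with few counts is not thereby shown to be silent, since NUSAP1, a mitotic gene, had 0 to 5 counts.

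Genes reaching 10 counts in 2 or more libraries were fitted in edgeR 4.0.16 (R 4.3.3) with TMM factors, robust dispersions and the quasi-likelihood test, two-sided, Benjamini-Hochberg threshold 0.05. Diet under gilteritinib used 4 libraries with the tissue code as the block, which pairs libraries by tissue, and 1 residual degree of freedom, so standard errors lean on the spread shared across genes. The differences by drug and by tissue label used all 8 libraries. Transcript length and GC came from GENCODE 29, which holds 96.4% of the identifiers; the offsets used mgcv 1.9.3. DESeq2 1.42.0 and limma 3.58.1 were alternatives.

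The comparison, the gene lists and the markers were chosen with earlier results of these data known. Genes were named by rule: the 12 largest called changes each way with the same direction in both labels and a mean log2 CPM of 2 or more, up to 4 called members per list, a set of metabolic and leukaemia genes, and 6 per direction for each difference. Some genes the rule names are not reported here. MS4A3, ETFB, ACADM, CIITA, CTSG and the uncalled members were named after their values were seen, as were ITGAL, SDC2, IMPA2 and FCGRT in the plot of both drug arms.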

Additional observations from a re-analysis of the deposited data

Results flagged for a closer look

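Genes are given here because the difference in their diet effect was itself called by edgeR's quasi-likelihood test. Between gilteritinib and vehicle, the log2 difference was 0.67 for AZU1, 0.78 for UBE2C, 2.17 for JCHAIN, 0.72 for RPL26, 0.57 for ELANE and 0.71 for PTTG1, the mitotic protein securin. On the negative side it was -0.71 for EIF3L, -0.82 for BHLHE40, -0.68 for PARP4, -0.57 for ALDH1A3, -0.76 for WASHC4 and -0.69 for SCYL2. JCHAIN rested on 21 counts in the marrow library on standard diet with gilteritinib. With length and GC offsets AZU1, ELANE, WASHC4 and SCYL2 were no longer called (edgeR adjusted p = 0.143, 0.379, 0.0541 and 0.0602).

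Between tissue labels, the log2 difference (labelled liver minus marrow) was 0.72 for BEX1, 0.93 for ATP6V1C2, 0.84 for GBP5, 0.43 for DDX21, 0.84 for IL1RAP and 0.38 for DDX5. It was -0.88 for MT-ATP8, -0.81 for MT-ND4L, -0.62 for MT-ND5, -0.58 for MT-ND4, -0.56 for MT-ND2 and -0.48 for MT-ND1. MT-ATP8 and MT-ND4L overlap their neighbours MT-ATP6 and MT-ND4, so their reads may be shared.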

How the results depend on the processing

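For diet under gilteritinib (1745 genes) the count was within 1.5 times under DESeq2 size factors, upper quartile factors, library totals, a filter of 50 counts, limma-voom, the older quasi-likelihood fit, all 8 libraries and annotated genes only. It was 225 with no filter, 494 with DESeq2, 855 with length offsets and 963 with length and GC offsets. With no replicate block, that is without pairing by tissue code, edgeR called 0 genes, with 1404 at an unadjusted p under 0.05 against 3520 in the paired fit. Leaving out 1 library, from the fit of all 8, gave 511 genes without marrow on standard diet, 516 without marrow on ketogenic diet, 472 without labelled liver on standard diet and 473 without labelled liver on ketogenic diet. For the drug by diet difference (108) the count was 0 with no filter, 33 with DESeq2, 402 with a tissue by diet term added, 18 with length offsets and 32 with both offsets, and 7 to 113 with 1 library left out; besides the labelled liver vehicle libraries, marrow libraries moved it over 1.5 times, to 64 without vehicle standard, 47 without gilteritinib standard and 52 without gilteritinib ketogenic. For the tissue label difference (48) it was 13 with no filter, 17 with DESeq2 and 164 with limma-voom; leaving out a library leaves no residual degree of freedom there. The cause of these shifts was not tested. No named gene that was called in the main fit reversed. MT-ATP8 and MT-ND4L, not called there, went from 0.16 and 0.03 to -0.23 and -0.36 with length and GC offsets. MT-ND4L was then called lower (edgeR adjusted p = 0.000177). With length and GC offsets 19 named genes lost their call, with DESeq2 26, with no filter 71 and with no replicate block 114. DESeq2 gave no adjusted p for some further named genes, SCD, PDK4, JCHAIN and PDE3A among them. With 2 libraries a diet, small changes are beyond these data.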
